A study of Rattus norvegicus with 21 samples.

Results

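The genes described here encode the subunits of the 5 respiratory chain complexes that are transcribed in the nucleus. They were taken by name from 2 tables of 32623 genes each. A protein-coding gene outside the mitochondrial chromosome was kept when its symbol was one of the Nduf (complex I), Sdh (II), Uqcr or Cyc1 (III), Cox4 to Cox8 (IV) or Atp5 (V) series. It also had to reach 1 FPKM in at least 3 samples of a table, where FPKM is the level per transcript length and per library. Of 89 genes with such names, 79 passed, and the same 79 passed in both tables: 36 of complex I, 4 of II, 10 of III, 12 of IV and 17 of V.

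RNA was sequenced from 21 rat liver samples in 7 groups of 3. Wistar rats were sampled at d23 and d63, each as a control and an early weaned group, where early weaning means removal from milk before the usual age. Sprague Dawley (SD) rats were sampled at d211 as control, early weaned, and early weaned with 1.5% leucine in the drinking water. The series' title concerns fatty acid oxidation and obesity after early weaning. All 7 groups are whole liver without a genetic change named in the labels. Strain, the d211 age and the second table coincide, so values are compared within a table only. Whether each sample is its own animal is not stated in the labels, so p-values speak only of the spread among samples, which may be technical. Hepatocyte markers reached 57804 to 121502 summed FPKM over 9 genes, none of them at 0 throughout a group, and total counts were 52054644 to 75118153 per library.

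The respiratory chain sits in the inner mitochondrial membrane. Complex I takes electrons from NADH and complex II from succinate, and both pass them to ubiquinone. Complex III hands them on to cytochrome c, complex IV to oxygen, and complex V, the ATP synthase, uses the resulting proton gradient to make ATP. Most subunits are encoded in the nucleus, and a small set that includes catalytic proteins is encoded by mitochondrial DNA. In liver the chain supplies the ATP for making glucose and urea and oxidises the electrons released by fat breakdown. Many nuclear subunit genes are known to be activated by the transcription factors NRF1 and GABP (an ETS factor), with the coactivator PGC-1α, the product of Ppargc1a.

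The promoters below show the region where such factors can bind, for genes whose RNA fell together with age in control livers. For each complex, the gene of smallest adjusted p in that comparison was taken among genes matched to a RefSeq promoter by symbol and chromosome. Cyc1, the chromosome 1 entry of Uqcrb and Cox7a2l2 had smaller adjusted p than those taken from their complexes, but were not matched. Sdha, whose level was nearly the same at both ages, stands beside the genes taken. Sequences are from RefSeq on the rat build GRCr8 and run 5′ to 3′ on the gene's strand, from 250 bases before to 50 bases after the annotated start. Capitals mark GCATGCG, the core of the NRF1 site, or CCGGAAG, an ETS core, on either strand.
Ndufv1 (complex I), chr1:210734842-210735141 (minus strand): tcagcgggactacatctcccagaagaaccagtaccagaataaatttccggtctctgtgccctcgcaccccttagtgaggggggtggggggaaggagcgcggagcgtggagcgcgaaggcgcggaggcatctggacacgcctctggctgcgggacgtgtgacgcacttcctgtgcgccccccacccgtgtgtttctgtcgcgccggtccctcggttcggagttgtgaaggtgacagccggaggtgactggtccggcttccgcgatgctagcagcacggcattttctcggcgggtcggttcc
Sdhb (complex II), chr5:158547684-158547983 (plus strand): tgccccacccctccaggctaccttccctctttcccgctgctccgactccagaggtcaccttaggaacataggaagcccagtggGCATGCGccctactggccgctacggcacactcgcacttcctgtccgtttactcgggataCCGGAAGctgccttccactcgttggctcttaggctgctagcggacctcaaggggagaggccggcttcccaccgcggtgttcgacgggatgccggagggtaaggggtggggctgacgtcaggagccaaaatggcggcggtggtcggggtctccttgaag
Uqcrh (complex III), chr5:134790833-134791132 (minus strand): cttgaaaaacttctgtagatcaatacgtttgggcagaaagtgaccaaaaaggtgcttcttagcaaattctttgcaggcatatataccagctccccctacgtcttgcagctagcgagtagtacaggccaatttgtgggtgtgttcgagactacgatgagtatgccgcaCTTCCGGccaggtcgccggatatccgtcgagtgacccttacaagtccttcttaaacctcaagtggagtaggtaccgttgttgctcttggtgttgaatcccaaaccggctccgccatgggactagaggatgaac
Cox5b (complex IV), chr9:46417587-46417886 (plus strand): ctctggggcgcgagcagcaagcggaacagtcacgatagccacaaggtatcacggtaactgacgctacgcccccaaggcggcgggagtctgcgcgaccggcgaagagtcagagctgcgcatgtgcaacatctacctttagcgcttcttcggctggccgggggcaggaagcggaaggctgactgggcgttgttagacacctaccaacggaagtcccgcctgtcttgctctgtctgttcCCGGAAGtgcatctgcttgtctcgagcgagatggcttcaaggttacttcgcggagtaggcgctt
Atp5mc1 (complex V), chr10:81523296-81523595 (minus strand): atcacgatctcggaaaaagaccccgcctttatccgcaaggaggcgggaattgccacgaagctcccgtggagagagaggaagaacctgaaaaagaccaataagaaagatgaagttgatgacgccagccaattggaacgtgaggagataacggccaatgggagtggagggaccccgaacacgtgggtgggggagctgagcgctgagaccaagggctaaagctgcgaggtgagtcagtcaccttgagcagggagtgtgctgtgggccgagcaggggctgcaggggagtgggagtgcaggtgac
Sdha (complex II), chr1:30764303-30764602 (plus strand): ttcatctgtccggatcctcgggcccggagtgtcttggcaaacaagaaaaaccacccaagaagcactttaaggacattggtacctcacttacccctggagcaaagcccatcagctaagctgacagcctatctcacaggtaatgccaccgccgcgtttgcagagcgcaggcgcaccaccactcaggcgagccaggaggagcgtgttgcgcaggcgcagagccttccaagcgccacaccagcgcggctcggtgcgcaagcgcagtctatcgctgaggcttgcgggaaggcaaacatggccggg
Sdhb held both cores, Uqcrh and Cox5b held an ETS core, and Ndufv1, Atp5mc1 and Sdha held neither in this window.

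Promoters were matched by symbol and chromosome for 64 of the 79 genes. GCATGCG was found in 10 of 64 (15.6%), against 3.33% of 33469 RefSeq promoters of the same length. CCGGAAG was found in 19 of 64 (29.7%), against 8.75%. The GC box GGGCGG was in 25 (39.1%, against 33.1%) and CCAAT in 20 (31.2%, against 37.5%), each counted on both strands. A match that overlapped one of another motif was counted for both. Among the genes lower with age in control livers, 3 of 26 held the NRF1 core and 7 of 26 the ETS core, and among the rest 7 of 38 and 12 of 38 did. A match describes the letters only.

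Subunit RNA levels differed widely within each complex. Atp5f1b, the catalytic β subunit of ATP synthase, was the most abundant in both strains, with a median of 787 FPKM over the Wistar and 734 over the SD libraries. Cox4i1, a regulatory subunit of complex IV, led its complex with 541 and 524 FPKM. In complex I the highest median was that of Ndufa6 in Wistar (228 FPKM) and of Ndufa4 in SD livers (278 FPKM). Ndufa4 is named for complex I but is now placed with complex IV. In complex III, Uqcrh led in Wistar (212 FPKM) and Uqcr11 in SD livers (191 FPKM). Complex II had the narrowest range, from 95.6 FPKM for Sdhc to 124 FPKM for Sdhb in Wistar livers, a ratio of 1.30, against 45.4 in complex I and 42.5 in complex V. At the low end were Atp5md in Wistar (18.5 FPKM), Atp5f1c, the γ subunit, in SD (26.5 FPKM), and in complex IV Cox7a2l (40.02 FPKM, Wistar) and the chromosome 2 entry of Cox6b1 (34.9 FPKM, SD). FPKM is relative to length, so these ranks and ratios also depend on the annotated transcripts. In SD the implied length of Atp5f1c was 7582 bases. Its highest count there, 14394, was near the 14272 of Atp5pd, which had a median of 225 FPKM. Atp5md and the chromosome 13 entry of Ndufv3 had implied lengths of 317 and 340 bases. Cox7a2l joins complexes III and IV into larger assemblies, and Atp5if1 blocks ATP synthase from running backwards, so neither is a core subunit.

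The liver forms of the paired subunits made up the expressed set. The muscle and heart forms Cox6a2, Cox7a1 and Cox8b, the testis forms Cox6b2, Cox7b2 and Cox8c, the lung form Cox4i2 and the hypoxia-induced Ndufa4l2 all fell below the filter. The other excluded entries were Cox6c-ps1 and a chromosome 6 entry of Ndufa10l1. Their highest values were 2.83 FPKM for the latter, 1.93 for Cox7a1 and 1.79 for Cox6b2. The lowest gene inside the filter, the chromosome 13 entry of Ndufv3, had medians of 5.03 FPKM in Wistar and 3.77 in SD livers. Cox6b1, Uqcrb and Ndufv3 each have a second entry on another chromosome, and reads shared between such copies could not be separated, so their split is uncertain. Ndufab1, an acyl carrier subunit of complex I, is not caught by the names.

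**Figure D1:**
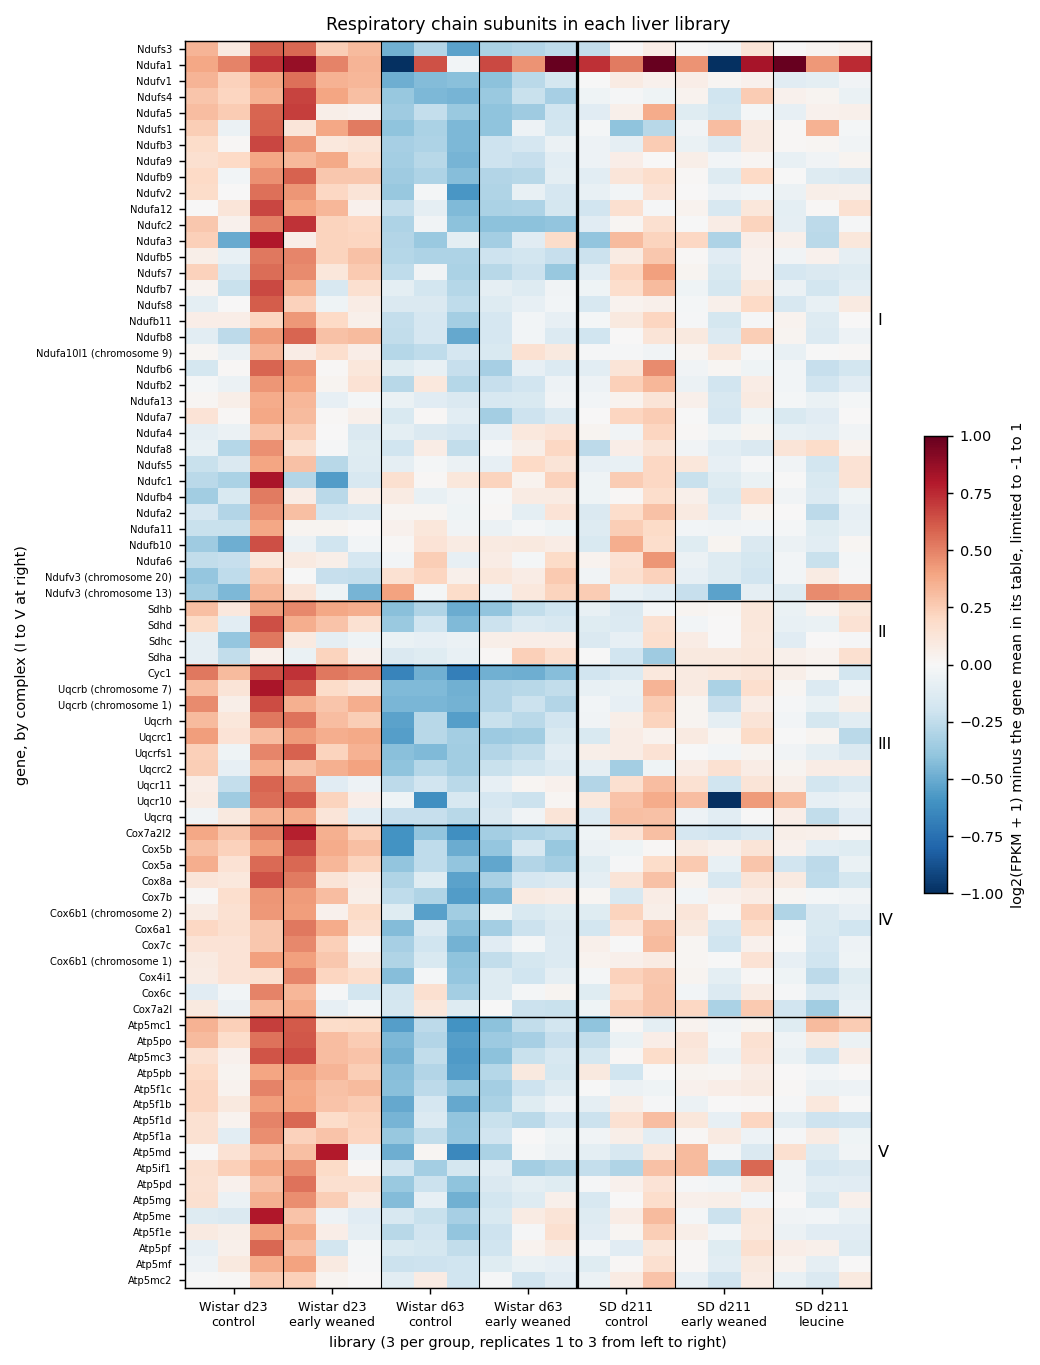
Each row is a subunit gene and each column 1 of the 21 liver libraries, with 78 of the 79 genes drawn because 1 complex I gene is not reported here by name. Colour gives log2(FPKM + 1) minus the gene's mean in its own table, limited to −1 to 1, and the thick line separates the Wistar from the SD table. Most rows are red at d23 and blue at d63, and Ndufa1 is dark blue in the 2 libraries where it is listed at 0.

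Libraries of a group were closer to each other in these genes than in the average gene. The median within-group SD of log2 CPM (counts per library size) was 0.186 for the subunits against 0.381 for all genes in Wistar, and 0.139 against 0.335 in SD livers. The genes were not matched for level, on which this spread can depend, so the gap is not shown to be particular to the subunits. Ndufa1, a small membrane-arm subunit, stood apart. It was listed at 0 in replicate 1 of the d63 controls (0, 102 and 64.2 FPKM) and in replicate 2 of the d211 early weaned livers (88.7, 0 and 115 FPKM). In the other 19 libraries it lay between 64.2 and 161 FPKM. Among genes with a median of at least 50 FPKM, 3 of 1089 in the Wistar and 4 of 1258 in the SD table are listed at 0 somewhere. Uqcr10, a small complex III subunit, was low in the same d211 library (119.9, 29.4 and 130.2 FPKM). Ndufa1 was not called in the control age comparison below (edgeR adjusted p = 0.638). Leaving it out of the list, an alternative chosen after seeing the data, did not repeat the fit. The 34 calls therefore could not change, which tests nothing, and the median stayed at −0.50. In the plot of subunits by library, replicate 3 of the d23 controls was red in most rows. Subunits took 2.51% of its FPKM, against 1.88 and 2.07% in the other d23 controls.

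Between d23 and d63, subunit RNA fell in control livers in genes of all 5 complexes. Of the 79 genes, 74 were lower at d63 (52% of all genes were), and 34 of these fell past the test while 0 rose. The background was 9.61% of 15416 genes called lower and 7.97% called higher (edgeR quasi-likelihood test, Benjamini-Hochberg adjusted p below 0.05 over all genes). The median log2 fold change was −0.50, against −0.04 over all genes. In FPKM, d63 lay wholly below d23 for 52 of the 79 (background 15.7%) and wholly above for 0 (16.7%). In bulk liver, fewer cells of a type and less RNA per cell cannot be told apart.

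Complex III changed most by its median, −0.66, and 7 of its 10 genes fell. Cyc1, cytochrome c1, which passes electrons from the Rieske protein to cytochrome c, had 188, 163 and 204 FPKM at d23 and 81.99, 93.2 and 80.8 FPKM at d63. Each d63 control was far below each d23 control. The fall was 1.11 on the log2 scale (SE 0.142, edgeR adjusted p = 0.00164). Uqcrh, the hinge protein that helps cytochrome c dock, had 269.9, 234 and 313 FPKM at d23 and 149, 178 and 147 FPKM at d63, again without overlap (log2 fold change −0.78). The core proteins Uqcrc1 and Uqcrc2 changed by −0.68 and −0.54, and Uqcrfs1, the Rieske iron-sulfur protein, by −0.65. Both Uqcrb entries fell (−0.92 for chromosome 7 and −0.89 for chromosome 1). The 3 that did not pass were Uqcr10, Uqcr11 and Uqcrq.

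In complex IV, 7 of 12 genes fell (median −0.55). The entry named Cox7a2l2 had 266, 247 and 288 FPKM at d23 and 134, 154 and 133 FPKM at d63 (log2 fold change −0.92, SE 0.16, edgeR adjusted p = 0.0074). The tables place it on chromosome 8, where RefSeq has Cox7a2, the liver form of subunit 7a, and RefSeq uses the name Cox7a2l2 for a gene elsewhere, so the name is uncertain. Cox5b, which sits on the matrix side, went from 434, 413 and 469 FPKM to 231, 294 and 249 FPKM, a change of −0.76. Its matrix-side partner Cox5a changed by −0.71, Cox6a1 by −0.53 and Cox7c by −0.50, and both Cox6b1 entries fell. Cox4i1 (−0.38, adjusted p = 0.0972), Cox8a (−0.62, 0.052) and Cox6c (−0.24, 0.435) did not pass the edgeR test.

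In complex V, 10 of 17 genes fell (median −0.52). Atp5mc1, which encodes the proton-carrying c-ring subunit, had 227, 209.8 and 288 FPKM at d23 and 121, 148 and 117 FPKM at d63 (−0.90, SE 0.182). Of the other genes for the same c subunit, Atp5mc3 fell by 0.71, while Atp5mc2, at 229, 232 and 276 FPKM and then 213, 243 and 200.4 FPKM, overlapped between the ages. Atp5po, the stalk protein OSCP that holds the catalytic head, changed by −0.78. In the head itself, the catalytic Atp5f1b went from 899.6, 827 and 1035 FPKM to 542, 691 and 544 FPKM (−0.63), without overlap. The α subunit Atp5f1a changed by −0.52 at an adjusted p of 0.0499 by edgeR, just inside the threshold. The γ subunit Atp5f1c (−0.63) and the δ subunit Atp5f1d (−0.57) fell too, and the ε subunit Atp5f1e did not pass (−0.48, 0.0788). The inhibitor Atp5if1 and the peripheral stalk genes Atp5pb and Atp5pd were among the falls.

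Complex I was the most mixed, with 8 of 36 genes falling and a median of −0.36. Ndufv1, which binds NADH, had 109, 101 and 113 FPKM at d23 and 60.9, 63.5 and 64.1 FPKM at d63 (−0.77, SE 0.13, edgeR adjusted p = 0.00657). The groups lay far apart and each was tight. The core subunits Ndufs3 (−0.80) and Ndufs1 (−0.69), which carries iron-sulfur clusters, fell as well. Of the accessory subunits, Ndufs4 (−0.73), Ndufa5, Ndufa9, Ndufb3 and Ndufb9 fell. The 7 core subunits tested had a median of −0.57 and the 29 accessory ones −0.31, with 3 and 5 called. Not all core genes passed: Ndufv2, the partner of Ndufv1 in the NADH-oxidising module, had −0.57 (edgeR adjusted p = 0.0645). The 5 genes of the 79 that were higher at d63, none past the test, were all in complex I.

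In complex II, Sdhb and Sdhd fell and Sdha and Sdhc did not pass. Sdhb, the iron-sulfur subunit, went from 157, 137 and 172 FPKM to 95.4, 103 and 90.01 FPKM (−0.69, SE 0.139). Sdhd, a membrane anchor, changed by −0.61, and its anchor partner Sdhc by −0.13. Sdha, the flavoprotein that oxidises succinate, had 113, 101 and 124 FPKM at d23 and 108, 110.1 and 114 FPKM at d63. These overlapped, and the log2 fold change was −0.02 (SE 0.146). The changes of Sdhb and Sdha were not tested against each other.

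**Figure D2:**
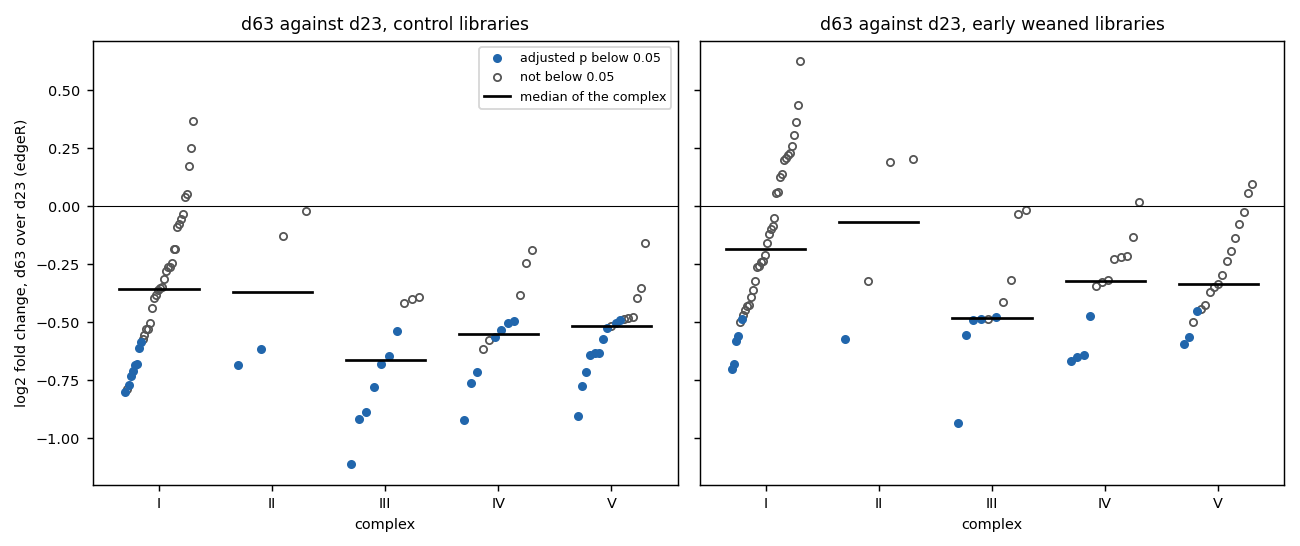
Each point is 1 subunit gene, placed by complex along the horizontal axis, with its edgeR log2 fold change of d63 over d23 on the vertical axis, for control (left) and early weaned libraries (right). Filled points passed an adjusted p of 0.05, and black lines are medians of −0.36, −0.37, −0.66, −0.55 and −0.52 for complexes I to V on the left.

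Subunit RNA was also lower at d63 in early weaned livers, in fewer genes. These libraries share none with the controls. Of the 79 genes, 61 were lower at d63 (50.9% of all genes were), 18 fell past the test (background 13.5% of 15416 genes) and 0 rose (13.5%), with a median of −0.30 against −0.02 over all genes. In FPKM, 52 genes lay wholly lower (background 31.0%) and 3 wholly higher (21.3%). By complex, 5, 1, 5, 4 and 3 genes of complexes I to V fell. Of the 18, 17 had also fallen in controls, which is 94.4% of this list and 50% of the control list of 34. The exception was Ndufc2, an accessory complex I subunit (−0.70, edgeR adjusted p = 0.0201). Of all genes called in controls in either direction, 74.9% were also called in early weaned livers, so the 50% of the subunits was below that share. Over the 79 genes Spearman's rho between the changes was 0.825, against 0.749 over all 15416 genes. Genes are not independent replicates, and this is a description.

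Cyc1 again led, with 216, 188 and 184 FPKM at d23 and 93.03, 92.6 and 97.1 FPKM at d63 (−0.93, SE 0.141, edgeR adjusted p = 0.00248). Every d63 value lay at or below 97.1 FPKM and every d23 value at 184 FPKM or more. Ndufv1 went from 126, 109.7 and 109 FPKM to 64.5, 71.3 and 76.02 FPKM (−0.58), and Sdhb from 179, 167 and 164 FPKM to 96.7, 107 and 111 FPKM (−0.57). Atp5f1b, with 1019, 946 and 925 FPKM and then 622, 713 and 748 FPKM, did not pass (−0.35, adjusted p = 0.126) although its libraries did not overlap. Sdha had 114, 140.0 and 124 FPKM and 121, 141 and 135 FPKM, again overlapping (0.19). The change with age in early weaned minus that in control livers was positive for 75 of 79 genes (53.2% of all genes), with a median of 0.21 (0.07 without control d23 replicate 3, and 0.09 with limma on log2(FPKM + 1)). This interaction was called for 0 genes (background 0.00649%), with 0 at an unadjusted p below 0.05 and 0 by DESeq2, so no subunit was shown to fall less in early weaned livers.

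The counts of calls changed with the set of libraries fitted and when single libraries were left out. The shares of all genes called in these fits are not given here. The changes in the counts therefore cannot be read as particular to the subunits. In controls, the 34 became 1 (Cyc1) when only the 6 libraries compared were fitted. The number of falls was 13 without d23 replicate 1, 12, 19 and 6 without d63 replicates 1, 2 and 3, and 27 without d23 replicate 2. Without d23 replicate 3 it was 30, and 3 complex I genes were then called higher: Ndufb10 (0.51), Ndufc1 (0.40) and the chromosome 20 entry of Ndufv3 (0.48). In early weaned livers the 18 became 24 with only the 6 libraries, when Ndufc1 (0.63) and the chromosome 20 entry of Ndufv3 (0.44) were called higher. It was 6 and 10 without d23 replicates 1 and 2, and 3, 6 and 8 without d63 replicates 1, 2 and 3. In that arm the median was −0.17 without d23 replicate 1. Whichever library was left out, 5 genes were called in controls (Cyc1, Ndufv1, Ndufs4, Cox7a2l2 and the chromosome 1 entry of Uqcrb) and 3 in early weaned livers (Cyc1, Ndufv1 and Ndufs4).

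Other cells' markers differed between these ages too, and so did depth in controls. In controls 4 of 5 stellate cell markers were lower at d63 (summed FPKM 145 to 175 at d23, 65.6 to 82.3 at d63), as were 3 of 4 endothelial markers (62.8 to 71.9, then 32.9 to 57.0). In early weaned livers the corresponding sums were 112 to 121 and then 56.0 to 69.0 for stellate, and 61.5 to 81.2 and then 26.3 to 37.0 for endothelial markers. Hepatocyte markers went from 57804 to 67750 FPKM at d23 to 85914 to 93474 at d63 in early weaned livers, with 5 of 9 called higher and 1 lower, and overlapped in controls (75481 to 121502, then 86237 to 87644; 2 called higher). No gene of these lists was at 0 in all libraries of a group. Total counts in controls were 58451039 to 59666573 at d23 and 65994032 to 71638683 at d63. In early weaned livers they overlapped, with 65420342 to 67544310 at d23 and 53165564 to 67996871 at d63. The part of these differences in the result was not tested.

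**Figure D3:**
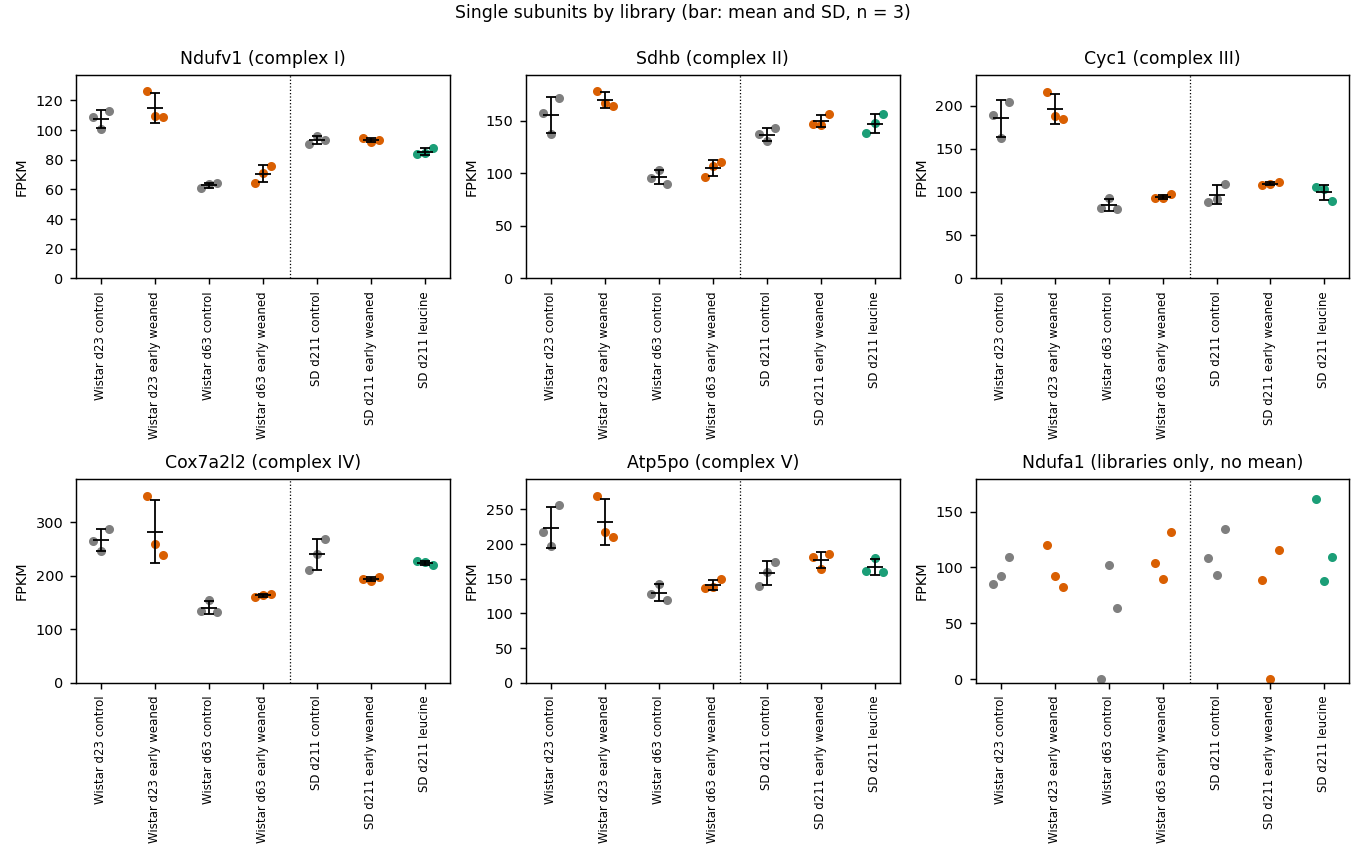
FPKM of 6 subunit genes, with 1 point per library and, except for Ndufa1, the mean and SD of each group of 3, and the dotted line separates the 2 tables. Cyc1, Ndufv1, Sdhb, Cox7a2l2 and Atp5po are lower at d63 than at d23 in every library of both arms, and Ndufa1 is at 0 in 2 libraries.

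Genes around the chain also moved with age. Of 12 listed regulators, 6 fell in controls, and in early weaned livers 5 fell and 1 rose, which is 50% lower, then 41.7% lower and 8.33% higher. Over all genes the shares were 9.61% lower and 7.97% higher in controls and 13.5% each way in early weaned livers, and the shares of the lists that follow are to be read against these. Ppargc1a had 54.5, 15.3 and 2.35 FPKM in d23 controls, 21.3, 52.5 and 39.7 FPKM in d23 early weaned livers, and 0.390 to 1.47 FPKM in the 6 d63 libraries. Its d23 values were widely spread, and the lowest of them, 2.35 FPKM, belonged to the control library with the highest subunit share. Esrra, a nuclear receptor that works with PGC-1α, had 36.9, 39.96 and 17.8 FPKM and then 9.79, 11.99 and 10.1 FPKM in controls (−1.56, edgeR adjusted p = 0.0074). Nrf1 fell by 0.82 and by 0.91 in the control and early weaned arms. Tfam, which packages and transcribes mitochondrial DNA, had −0.16 and 0.06 and did not pass in either.

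Of 12 citric acid cycle genes, 7 fell in controls and 6 in early weaned livers, and 0 rose (58.3% and 50% lower). Idh3a, of the NAD-dependent isocitrate dehydrogenase, fell by 1.53 in controls and by 1.33 in early weaned livers. Citrate synthase, Cs, did not pass (−0.20 and −0.08). Of 15 electron carrier and coenzyme Q genes, 5 fell and 1 rose in controls, and 3 fell and 3 rose in early weaned livers (33.3% lower and 6.67% higher, then 20% each way). Cycs, cytochrome c, had 199.9, 195 and 198 FPKM and then 97.95, 75.4 and 92.7 FPKM in controls (−1.15, edgeR adjusted p = 0.00309). The 44 tested assembly factors were mixed, with 7 lower and 1 higher in controls and 5 lower and 9 higher in early weaned livers (15.9% and 2.27%, then 11.4% and 20.5%, near the background). Cox10, an enzyme on the path to the haem A of complex IV, fell by 1.53 and 1.52, and Ndufaf4, a complex I assembly factor, by 2.37 and 2.11. In controls Ndufaf4 had 24.2, 24.4 and 6.59 FPKM at d23, so replicate 3 was far below the others, and 3.81, 2.78 and 4.02 FPKM at d63. Ndufab1 fell in controls (−0.59) and did not pass in early weaned livers (−0.41, 0.111).

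For the subunits encoded by mitochondrial DNA, all 13 were lower at d63 in controls (median −0.36), of which 4 fell (30.8%, against 9.61% of all genes), and 10 of 13 were lower in early weaned livers (median −0.30), of which 2 fell (15.4%, near the background of 13.5%). Mt-cyb, the mitochondrially encoded core of complex III, fell by 0.56 and 0.47.

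Summed FPKM puts the complexes side by side. Complex III held 1390 ± 242 FPKM in d23 controls and 862 ± 18.2 in d63 controls (mean ± SD, n = 3, as in the sums that follow). In early weaned livers it held 1443 ± 159 and then 982 ± 42.4. Complex V went from 4159 ± 668 to 2846 ± 253 in controls and from 4249.9 ± 463 to 3249.97 ± 209 in early weaned livers. Complex IV went from 3398 ± 319.7 to 2308 ± 259 and from 3594 ± 503 to 2532 ± 128. Complex II went from 519 ± 103 to 397 ± 13.3 and from 541 ± 18.5 to 448 ± 20.7. For these 4 complexes no d63 library reached a d23 library of its own arm. Complex I, with 3595 ± 762 and 2883 ± 172, overlapped in controls, and with 3638 ± 370.1 and 3095 ± 155 did not in early weaned livers.

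**Figure D4:**
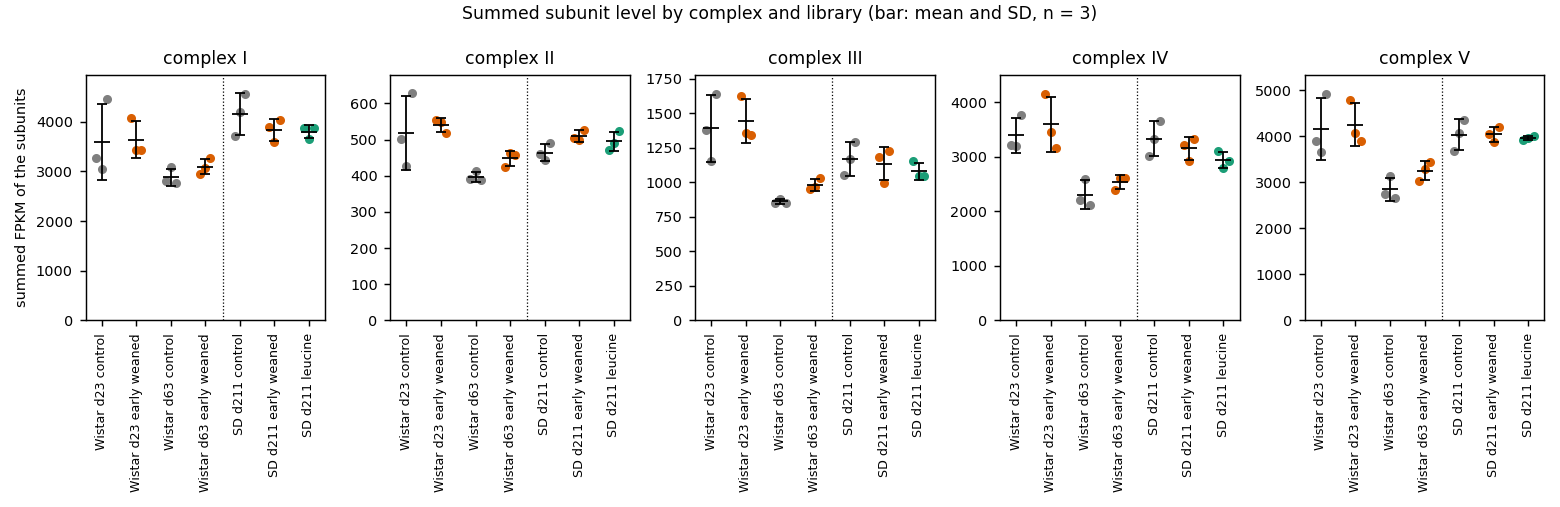
Summed FPKM of the subunits of each complex in every library, with the mean and SD of each group of 3, and the dotted line separates the Wistar from the separately normalized SD table. Within Wistar livers the sums are lower at d63, and complex I in controls is the case where the ages overlap.

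At d23 no subunit passed the test of early weaning. Of the 79 genes, 39 were higher (45.4% of all genes were) and 40 lower (54.2%), the median log2 fold change was −0.002, and 0 passed the test by edgeR (background 0.0130%), 0 at an unadjusted p below 0.05 and 0 by DESeq2. The smallest p of each complex belonged to Ndufc1 (−0.55, SE 0.267), Sdha (0.14, SE 0.146), Uqcrc2 (0.13, SE 0.142), Cox4i1 (0.15, SE 0.15) and Atp5pf (−0.19, SE 0.192). Cox4i1 was the only gene of the 79 whose FPKM did not overlap, with 559.6, 582 and 589 FPKM in controls and 741, 615 and 597 FPKM in early weaned livers (background 4.18% higher and 4.12% lower). The balance of directions rests on single libraries. The median was 0.16 without control replicate 3, −0.09 without control replicate 2 and −0.09 without early weaned replicate 1. In the same libraries hepatocyte markers summed to 75481 to 121502 FPKM in controls and 57804 to 67750 in early weaned livers (5 of 9 genes higher by edgeR, 4 lower). Stellate markers summed to 145 to 175 and 112 to 121 (4 of 5 lower) and erythroid markers to 1358 to 1961 and 859 to 1215 (4 of 4 lower). None of these was called or at 0 throughout, and their part was not tested.

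At d63, 74 of 79 genes were higher in early weaned than in control livers (48.4% of all genes were), by a median of 0.23 on the log2 scale against −0.01 over all genes. None passed the test by edgeR (0 called, background 0%), 4 had an unadjusted p below 0.05 (5.06%, against 6.05% of all genes), and DESeq2 called 0. In FPKM, early weaned livers lay wholly above controls for 26 genes (background 4.93%) and wholly below for 0 (13.7%). The 26 comprised 10 genes of complex I, 2 of II, 7 of III, 2 of IV and 5 of V. With limma on log2(FPKM + 1) the median was 0.14, with 66 of 79 higher, and on log2(TPM + 1) 0.12, with 62 higher. Sdha had 108, 110.1 and 114 FPKM in controls and 121, 141 and 135 FPKM in early weaned livers (0.34, SE 0.146, edgeR adjusted p = 0.793). Atp5pb, of the peripheral stalk, had 32.4, 35.6 and 29.4 FPKM and 35.7, 46.96 and 38.6 FPKM (0.40, SE 0.16, 0.786). The smallest p of complexes I, III and IV belonged to the chromosome 9 entry of Ndufa10l1 (0.37, SE 0.148), Uqcrh (0.31, SE 0.154) and Cox7c (0.33, SE 0.15). This Ndufa10l1 entry lies where RefSeq has Ndufa10, so its name is uncertain. The summed FPKM of complexes II (388 to 413 in controls, 425 to 463 in early weaned livers) and III (849 to 883, then 949 to 1030) did not overlap, and those of the other complexes did.

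By the sign of the edgeR change, markers of several other cell types were lower in the same early weaned livers. This held for 5 of 5 Kupffer cell genes (summed FPKM 156 to 304 in controls, 120 to 176 in early weaned livers), 4 of 4 endothelial genes (32.9 to 57.0, then 26.3 to 37.0) and 4 of 5 stellate genes (65.6 to 82.3, then 56.0 to 69.0). The median Kupffer sum was 156 in controls and 171 in early weaned livers, so the middle library went the other way and 1 control library was high. It also held for 5 of 5 lymphocyte genes (2.00 to 4.06, then 1.22 to 2.38) and 4 of 4 erythroid genes (92.6 to 2294, then 236 to 915). For 4 of 4 pancreatic acinar genes the sums were 3.15 to 32.3 and then 8.98 to 18.5 (medians 10.6 and 10.8), with Cpa1, Ctrb1 and Prss1 at 0 in all 3 early weaned libraries. None of these genes passed the test, and their part in the subunit values was not tested.

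At d211, whether the subunits were lower in early weaned than in control livers depended on the scale. With edgeR's TMM scaling, 75 of 79 genes were lower (47.7% of all genes were) and the median was −0.24, against 0.02 over all genes. With limma on log2(FPKM + 1) the median was −0.03, with 32 higher and 47 lower, and on log2(TPM + 1) it was 0.05, with 51 higher and 28 lower. On those scales the median over all genes was 0.17 and 0.25, so on each scale the subunits lay below the median gene. None passed the edgeR test (0 called, background 0.719%), 29 had an unadjusted p below 0.05 (36.7%, against 17.3% of all genes), and DESeq2 called 5. The share of all genes called by DESeq2 is not given here, so its 5 calls cannot be read as an excess. In FPKM 6 genes lay wholly above controls (background 20.8%) and 6 wholly below (4.24%).

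Cox7a2l2 had 212, 240.1 and 269 FPKM in controls and 194, 191 and 197 FPKM in early weaned livers (−0.52, SE 0.123, edgeR adjusted p = 0.0785, DESeq2 adjusted p = 0.00705). The early weaned libraries were tight and all below the controls. Ndufa6, a complex I accessory subunit, had 225, 244 and 299.8 FPKM and 211, 202 and 195 FPKM (−0.55, SE 0.141, 0.0899, DESeq2 0.0160), also without overlap. Uqcrfs1 lay wholly lower at 144, 147 and 154 FPKM and 139, 136 and 142 FPKM (−0.31, SE 0.103). For complexes V and II the smallest p belonged to Atp5mc2 (−0.38, SE 0.135) and Sdhd (−0.15, SE 0.128; with limma 0.07 on FPKM and 0.15 on TPM). Sdha lay wholly higher in FPKM, with 111, 97.3 and 86.7 in controls and 119, 119 and 120.2 in early weaned livers, as did Sdhb with 137, 130.4 and 143 and 147, 146 and 157. On the TMM scale these had 0.07 and −0.08, so the direction of Sdhb changes with the scale.

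In summed FPKM, complex II was wholly higher in early weaned livers (443 to 490 FPKM in controls, 498 to 528 after early weaning). The other 4 overlapped, with 4156 ± 421 and 3834 ± 227 FPKM for complex I, 1170 ± 122 and 1134 ± 121 for III, 3336 ± 323 and 3154 ± 214 for IV and 4034 ± 338 and 4039 ± 163 for V (mean ± SD, n = 3 in each group). By edgeR, complex II had the median nearest 0 (−0.11), and complexes I, III, IV and V had −0.29, −0.29, −0.30 and −0.19. All 13 mitochondrially encoded genes were lower as well (median −0.51, 0 called by edgeR, 6 at an unadjusted p below 0.05). The ratio of their summed FPKM to that of the nuclear subunits was 6.84 to 7.10 in controls, 5.49 to 6.42 in early weaned and 5.75 to 7.42 in leucine libraries. Mt-atp6, a mitochondrially encoded complex V subunit, was low in early weaned replicate 2 (11543, 3288 and 12967 FPKM) and in leucine replicate 1 (3739.8, 12849 and 11052 FPKM). Without it, an alternative chosen after seeing the data, the ratio was 5.75 to 5.98 in controls and 4.59 to 6.14 in early weaned livers, which overlapped.

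Transcript length moved with the d211 values. Across the 79 genes, Spearman's rho between length and log2 fold change was 0.411, against 0.155 over 13256 genes. The 40 shorter subunits had a median of −0.31 and the 39 longer ones −0.19. Subunit transcripts are short, with a median of 725 bases implied by the table against 2193 for all genes. With each library's length trend removed, an alternative chosen after seeing the data, the median was −0.14, with 64 of 79 lower. Without control replicate 1 it was −0.33. Early weaned libraries had 10844 to 11082 genes at 1 FPKM or more and controls 10250 to 10585. All 5 cholangiocyte markers were higher in them (8.24 to 13.5 summed FPKM in controls, 16.1 to 30.5 after early weaning, none at 0 throughout), and 8 of 9 hepatocyte markers were lower by edgeR, with overlapping sums of 74745 to 81503 and 73966 to 79821 FPKM. The part of these differences was not tested.

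**Figure D5:**
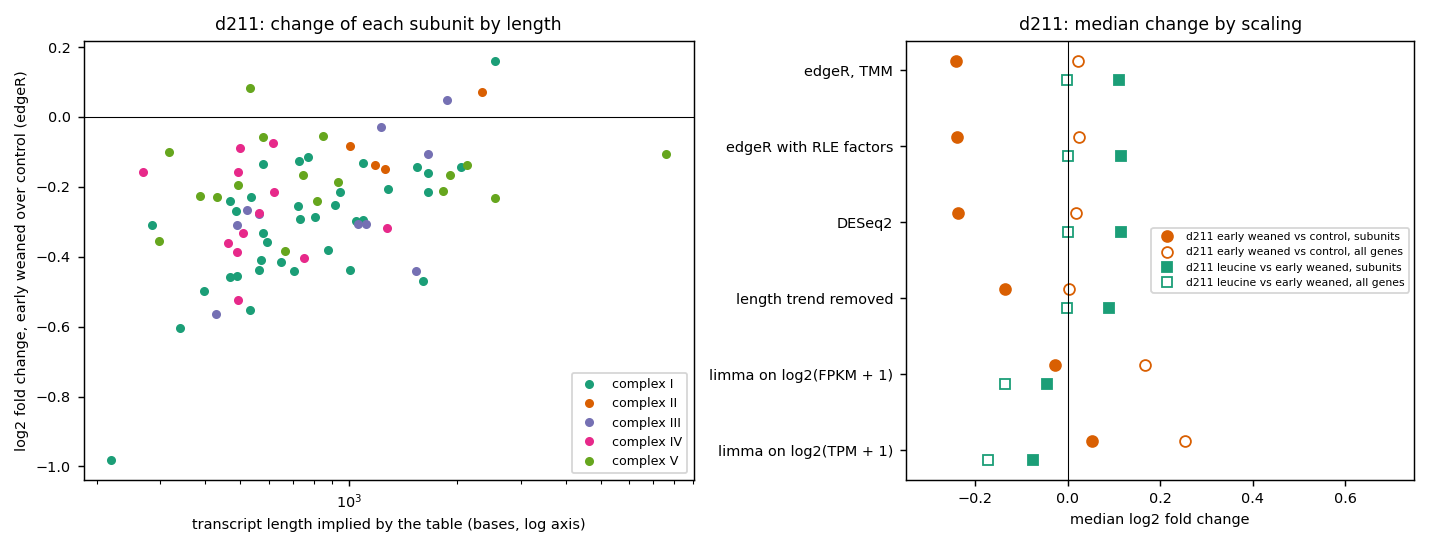
Left, the edgeR log2 fold change of each subunit (early weaned over control, d211) against its transcript length in bases on a log axis, coloured by complex. Right, the median log2 fold change of the subunits (filled) and of all genes (open) under 6 scalings for early weaned against control and leucine against early weaned livers, where the subunit median crosses or nears 0 with the FPKM and TPM scalings.

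Leucine in the drinking water was not accompanied by a change of any subunit past the test. Against early weaned livers without leucine, 70 of 79 genes were higher with TMM scaling (49.8% of all genes were; median 0.11, against −0.002 over all genes). With limma on log2(FPKM + 1), 18 of 79 were higher and the median was −0.04, against −0.14 over all genes, so on both scales the subunits lay above the median gene. The TMM median was 0.07 without early weaned replicate 1. By edgeR 0 passed (background 0.360%), 4 had an unadjusted p below 0.05 (5.06%, against 13.1% of all genes), and DESeq2 called 0. In FPKM 3 genes lay wholly higher (background 5.07%) and 13 wholly lower (17.8%). Cox7a2l2 was among the higher ones, at 228, 226 and 220.4 FPKM with leucine against 194, 191 and 197 FPKM without (0.37, SE 0.123, edgeR adjusted p = 0.218). Ndufa8, an accessory complex I subunit, had 92.02, 95.9 and 86.1 FPKM against 82.4, 78.4 and 76.2 FPKM (0.37, SE 0.14, 0.293). The smallest p of complexes II, III and V belonged to Sdhb (0.13, SE 0.105; −0.02 with limma on FPKM), the chromosome 1 entry of Uqcrb (0.19, SE 0.122) and Atp5mc1 (0.31, SE 0.162).

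Against control livers, the leucine group had 68 of 79 genes lower with TMM scaling (48.5% of all genes were; median −0.15, and −0.08 with limma on FPKM). The median was −0.24 without control replicate 1 and −0.10 without control replicate 3. By edgeR 0 passed (background 0.0133%), 9 had an unadjusted p below 0.05 (11.4%, against 10.8% of all genes), and DESeq2 called 0. In FPKM, Sdha and Uqcrc2 lay wholly higher than controls (background 9.94%) and 11 genes wholly lower (6.39%). Summed over all subunits, the means were 13159.9 ± 1216 FPKM in control, 12670.4 ± 734 in early weaned and 12277 ± 299 in leucine livers (SD, n = 3 in each group), and the 3 ranges overlapped. These comparisons share libraries and are not independent of each other. With leucine, 5 of 5 Kupffer and 4 of 4 endothelial markers were higher than without, with summed FPKM of 95.8 to 146 against 77.0 to 158 and 41.0 to 48.1 against 27.4 to 44.5, and none at 0 throughout. Cholangiocyte markers summed to 10.1 to 15.3 FPKM with leucine and 16.1 to 30.5 without (2 of 5 genes higher by edgeR and 3 lower). Their part in the subunit values was not tested.

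The tables place Cyc1 (ENSRNOG00000012457) on chromosome 7, 117409576 to 117411953, Ndufv1 (ENSRNOG00000018117) on chromosome 1, 219254279 to 219259448, Sdhb (ENSRNOG00000007967) on chromosome 5, 159484370 to 159505064, Cox7a2l2 (ENSRNOG00000042903) on chromosome 8, 87209530 to 87213627, and Atp5f1b (ENSRNOG00000002840) on chromosome 7, 2504695 to 2511749. The rat build of these gene spans is not named, and the coordinates of the promoters above are on GRCr8, so the 2 sets are not to be mixed.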

How the data were processed

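The authors deposited 1 table per strain, with a count column and an FPKM column for every sample, per the file headers. The deposited counts are whole and not normalized, and pile up at multiples of 4, so a fragment may be worth about 4 units. They were treated as estimated counts, and the main fit used them as deposited, without division. The authors' FPKM values are relative to transcript length and library size. Aligner and counter: not given in the sources used here. GRCm38 and mm10, both mouse builds, appear in the submitters' processing notes, although the identifiers in the tables are those of rat genes. The labels name no strand setting, so overlapping and antisense genes, like near-identical copies, are uncertain.

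Each table was fitted alone with edgeR 4.0.16 in R 4.3.3, with TMM scaling, filterByExpr at a minimum count of 10, a mean per group and the two-sided quasi-likelihood test. P-values were adjusted by Benjamini-Hochberg over 15416 (Wistar) or 15019 (SD) genes, with calls at 0.05. All 79 subunits were tested in both, and some genes are not reported here by name. Alternatives used RLE scaling, DESeq2 1.42.0, no filter, and counts divided by 4. Others used limma 3.58.1 on log2 of FPKM or TPM plus a pseudocount of 1 (FPKM also 0.1). The rest used only the libraries compared, a replicate block, and each library left out. The fit was also run on simulated counts, and that outcome is not reported here. Log2 fold changes are edgeR's unless limma is named.

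The members and lists were chosen with earlier results of these data known. Genes given with values are those called in any contrast, the smallest p per complex in the early weaning and leucine contrasts, catalytic subunits, isoform families and the most and least abundant of each complex. All 21 samples were used, and no library was close enough to another to be a repeat deposit. With 3 samples a group, the spread between samples sets the precision.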

Additional observations from a re-analysis of the deposited data

Results flagged for a closer look

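Cox7a1, the heart and skeletal muscle form of complex IV subunit 7a, lay below the level filter but reached 1.93 FPKM in 1 of the d211 early weaned livers. Its values there were 0.497, 0.253 and 1.93 FPKM, against 0.0464, 0 and 0 FPKM in controls and 0.116, 0 and 0 FPKM with leucine. It is listed because a gene outside the comparisons was above its control level.

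The early weaning difference had opposite signs at d63 and d211 on the TMM scale. The mean of each library's median log2 CPM over all 79 subunits was 0.29 higher in early weaned than in control Wistar livers at d63, and −0.26 relative to controls in SD livers at d211. For complex I the differences were 0.22 and −0.31. In each case the 3 early weaned libraries did not overlap the 3 controls. Age, strain and table coincide here, the difference between the 2 comparisons was not tested, and the d211 sign was not the same on every scale.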

How the results depend on the processing

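The fall with age kept its direction in its median under every alternative run, from −0.61 to −0.38 on the log2 scale without each library in turn in controls and from −0.37 to −0.17 in early weaned livers. The counts moved more. The 34 calls in controls ranged from 6 to 33 without each library (the 33 being 30 lower and 3 higher) and were 1 with only the libraries compared. The 18 calls in early weaned livers ranged from 3 to 14 without each library, and were 35 with limma on log2(FPKM + 1), 33 on log2(FPKM + 0.1), 35 on log2(TPM + 1) and 11 without a filter. The shares of all genes called under these alternatives are not given here, and the cause was not tested. The samples share replicate numbers but not, as far as the labels say, a source. Correlations of same-numbered samples ran from −0.108 to 0.127 in Wistar and from −0.0902 to 0.122 in SD, so the numbers were not taken to pair them. With a replicate block the counts were 24 in controls and 11 in early weaned livers, and 0 in each other comparison, as without it.

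At d211 the early weaning median of −0.24 was −0.0279, −0.0280 and 0.0533 with limma on log2(FPKM + 1), log2(FPKM + 0.1) and log2(TPM + 1), −0.137 with the length trend removed, and −0.33 to −0.20 without each library, and DESeq2 called 5 genes. The background of that DESeq2 count is not given here. The leucine median of 0.11 against early weaned livers was −0.0441, −0.0442 and −0.0749 with the same 3 limma fits. Against controls it was −0.0309 on log2(TPM + 1), −0.0548 with the length trend removed, and −0.24 to −0.10 without each library. Among single genes that had not passed, Sdhd at d211 became 0.067, 0.068 and 0.148, and Sdhb with leucine −0.025, −0.025 and −0.056, in the 3 limma fits. At d23 Uqcrc2 became −0.00349 without control replicate 2 (−0.003 to 0.228 without each library) and Atp5pf 0.0387 without control replicate 3 (−0.337 to 0.039). Of the other values of named genes, 908 kept their direction and side of the threshold, 234 lost the threshold and 2 gained it. With 3 samples a group, small differences were not detectable.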

Other observations

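Nuclear genes for the mitochondrial ribosome, which translates the chain's mitochondrially encoded subunits, did not follow the subunits closely with age. The 74 genes whose symbols begin with Mrpl or Mrps had a median log2 fold change of −0.08 from d23 to d63 in controls, with 43 lower and 31 higher, 14 lower (18.9%, against 9.61% of all genes) and 0 higher past the edgeR test. In early weaned livers their median was 0.12, with 8 called lower (10.8%) and 5 higher (6.76%), both below the 13.5% of all genes. The medians of the subunits in the same comparisons were −0.50 and −0.30, and the difference between the 2 lists was not tested. At d211, 64 of the 74 were lower after early weaning with TMM scaling (47.7% of all genes were), with a median of −0.22. That median was close to the one given above for the subunits on the same scale. By edgeR 0 were called (background 0.719%), and 14 had an unadjusted p below 0.05 (18.9%, near the 17.3% of all genes). With leucine 45 were higher than without it (49.8% of all genes were), with a median of 0.04. There 0 were called (background 0.360%) and 0 had an unadjusted p below 0.05 (against 13.1% of all genes). Other scales were not compared for this list.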
